A study of Homo sapiens with 4 samples.

Results

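Peaks of a HuR RNA immunoprecipitation experiment were examined at the genes of integrins, matrix proteins and the proteases that cut matrix and cell surface proteins. Members were chosen by gene symbol: integrin subunits (ITGA, ITGB), laminin and collagen chains (LAMA, LAMB, LAMC, COL), matrix metalloproteinases (MMP), ADAM and ADAMTS proteases, their TIMP inhibitors, urokinase and its receptor (PLAU, PLAUR), CD44, fibronectin (FN1) and the thrombospondins (THBS). A peak was assigned to its host gene, which is the gene of the RefSeq transcript named in the annotation of that peak. By this rule 84 of the 14149 listed peaks, or 0.594%, belonged to 15 of 168 protein-coding member genes. This is 8.93% of the member genes (Wilson 95% interval 5.49 to 14.2), whereas 15.4% of all 20052 protein-coding genes had at least 1 listed peak. The other 153 member genes are called unlisted here.

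The cells were MDA-MB-231, an established human line of triple-negative breast cancer. HuR, the product of ELAVL1, was precipitated from lysate with a mouse antibody in 2 samples, and mouse IgG was used in 2 control samples. None of the 4 samples carried a genetic change or a drug treatment according to the labels, and all came from this single line. The deposited result is 1 list of selected peaks with 1 score per peak, no value for a single sample and no value for IgG. No difference from IgG and no replicate spread could therefore be measured here, and no test was made. An unlisted gene may lack bound RNA, may be too weakly expressed to give a peak, or may have been removed by the selection, and these cannot be told apart from the list.

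Integrins are receptors made of 1 alpha and 1 beta subunit that tie the cytoskeleton to laminin, collagen and fibronectin outside the cell. CD44 is a receptor for hyaluronan. Matrix metalloproteinases cut the matrix, ADAM proteases release the outer parts of membrane proteins, and ADAMTS proteases are secreted and act on matrix substrates. TIMP proteins inhibit the metalloproteinases. HuR binds AU-rich and U-rich stretches of RNA, often in 3′-UTRs and introns, and is known for its part in the stability and translation of mRNAs.

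The score comes from the peak caller on an unstated scale. A common step of 0.245 was found, and within rounding 99.3% of the 11121 scores under 100 were whole multiples of it. The interval given beside a score is an exact Poisson 95% interval on the steps it holds. Like the Wilson intervals, it covers counting error only, and the depth of the libraries is unknown. Peaks of the same gene or exon are not independent, so Wilson intervals on shares of peaks may be too narrow. All listed peaks were 347 bp long.

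Most member peaks lay beside internal exons, so the internal exons with the highest pair of peaks in ITGB1, CD44 and ADAM10 are shown first. Each sequence is the sense strand of the gene in hg38, with the exon in capitals and 28 intron bases on either side in lower case. The peaks themselves are centred in or near those introns. The + peak of ITGB1 exon 12 and the − peak of ADAM10 exon 10 are centred on annotated LINE repeats. ITGB1 exon 12 of 16 is at chr10:32911886-32912124, on the − strand of the reference. CD44 exon 5 of 18 is at chr11:35189835-35190065, on the + strand. ADAM10 exon 10 of 16 is at chr15:58627700-58627883, on the − strand.
ITGB1 exon 12: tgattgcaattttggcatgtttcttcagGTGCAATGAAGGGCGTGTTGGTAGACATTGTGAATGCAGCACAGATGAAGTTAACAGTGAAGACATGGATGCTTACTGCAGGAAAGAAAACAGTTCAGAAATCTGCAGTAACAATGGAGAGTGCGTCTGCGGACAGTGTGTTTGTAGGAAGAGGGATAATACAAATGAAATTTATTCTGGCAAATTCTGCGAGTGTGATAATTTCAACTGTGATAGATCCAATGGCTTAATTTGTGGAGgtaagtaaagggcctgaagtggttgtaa
CD44 exon 5: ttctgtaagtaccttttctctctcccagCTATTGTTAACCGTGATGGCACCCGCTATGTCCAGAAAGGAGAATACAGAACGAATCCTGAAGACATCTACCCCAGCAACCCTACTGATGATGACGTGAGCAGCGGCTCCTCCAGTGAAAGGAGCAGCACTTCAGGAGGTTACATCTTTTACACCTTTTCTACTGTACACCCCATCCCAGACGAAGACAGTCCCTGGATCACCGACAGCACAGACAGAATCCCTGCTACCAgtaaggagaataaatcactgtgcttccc
ADAM10 exon 10: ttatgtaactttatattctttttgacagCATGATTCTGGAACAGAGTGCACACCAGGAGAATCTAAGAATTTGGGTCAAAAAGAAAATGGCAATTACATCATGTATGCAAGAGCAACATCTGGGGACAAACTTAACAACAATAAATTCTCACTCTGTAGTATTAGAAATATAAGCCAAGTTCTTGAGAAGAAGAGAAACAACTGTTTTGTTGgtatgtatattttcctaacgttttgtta
The 28 bases before the exon hold 13 T in ITGB1, 12 in CD44 and 15 in ADAM10. The pentamer ATTTA occurs once in the ITGB1 exon and in neither of the other exons shown. In ADAM19 exon 6, not shown, with scores of 10.8 and 12.2, the same flank holds 9 T and the exon holds ATTTA once. T was not counted before exons without a peak, so whether these flanks are unusual was not tested.

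AU-rich sites under the 3′-UTR peaks are shown next, because ATTTA is the core of the AU-rich element to which HuR binds. Each line is a stretch of 29 bases on the sense strand with ATTTA in capitals. They are all the ATTTA sites lying in a member peak annotated to a 3′-UTR. Those of CD44 are at chr11:35231755-35231783, chr11:35231791-35231819 and chr11:35232279-35232307. Those of ADAM10 are at chr15:58596337-58596365, chr15:58596283-58596311, chr15:58596210-58596238 and chr15:58596130-58596158, and that of ADAM19 is at chr5:157477738-157477766.
CD44 site a: ctgggctaagtcATTTAaactgggtcttt
CD44 site b: taaaaggccaacATTTAattattttgcaa
CD44 site c: tggtttttgtatATTTAttgatggatcaa
ADAM10 site a: gtcccattccaaATTTAtttttgaaacag
ADAM10 site b: gaaagcaaaaacATTTAatgtattaacag
ADAM10 site c: agcttgtgacatATTTAttgcttctgttt
ADAM10 site d: cataggaggcaaATTTAgagaaagttgta
ADAM19 site a: gcctacttcctaATTTAttcttatttgac
The longer form TATTTAT is present in site c of CD44 and site c of ADAM10.

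Member peaks had a median score of 222 (quartiles 27.5 and 410), against 34.0 (17.6 and 83.4) over the whole list. This median describes a few genes. ITGB1, CD44, ADAM10 and THBS1 held 55 of the 84 peaks, or 65.5%, and 97.3% of the summed score. The 29 peaks of the other 11 genes had a median of 22.0 and a highest score of 94.0. A score of 100 or more was reached by 53 member peaks, or 63.1% (52.4 to 72.6), against 21.4% of the list, and all of these lay in the 4 genes named. Member peaks together carried 2.03% of the summed score of the list.

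**Figure D1:**
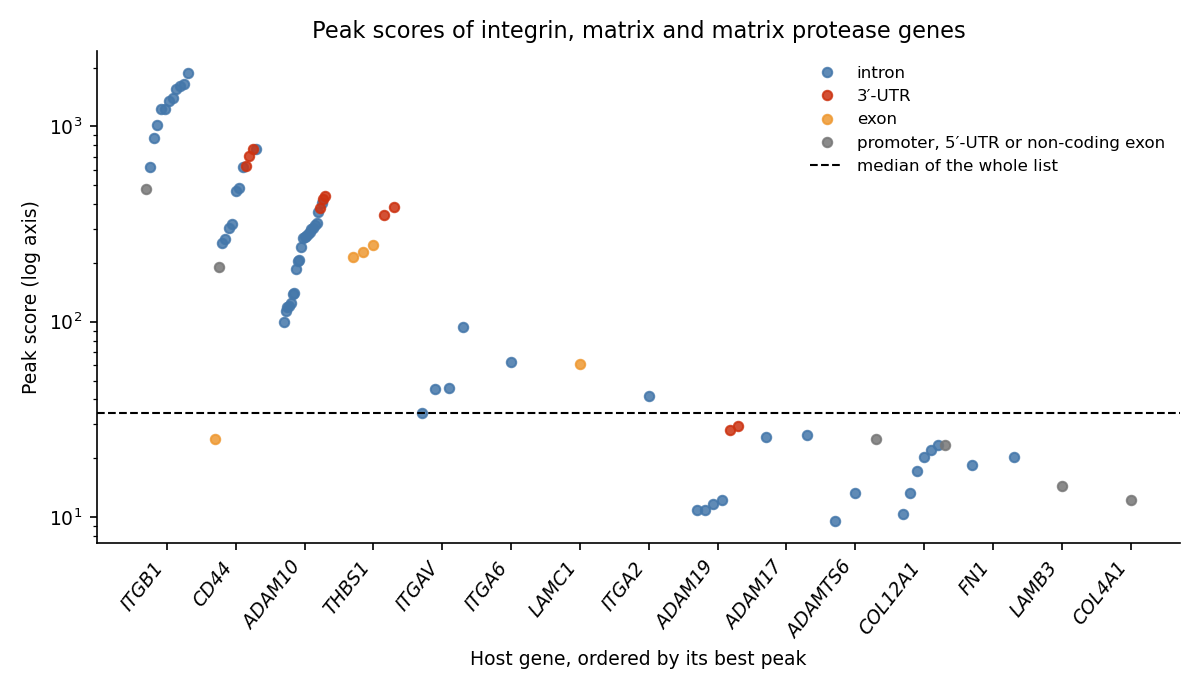
Score of each of the 84 member peaks (log axis) by host gene, coloured by the annotated region, with the median of the whole list, 34.0, as a dashed line. ITGB1, CD44, ADAM10 and THBS1 hold the scores above 100, and 1 CD44 peak, at 25.2, sits far below the rest of that gene.

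Among integrins, 3 of 18 alpha subunit genes (16.7%) and 1 of 8 beta subunit genes (12.5%) were listed, beside 15.4% of all protein-coding genes. ITGB1, the beta subunit shared by the largest set of integrin heterodimers, had the highest score of any member. Its best peak of 1875.7 (1834 to 1918) ranked 41 in the list and second among the 626 peaks of chromosome 10, and by best peak the gene ranked 15 of 3312 genes. The 12 peaks of ITGB1, in order from the 5′ end, scored 477.4, 619.4, 1016.3, 1606.8, 1230.9, 1235.6, 1391.2, 1345.2, 868.7, 1552.0, 1654.8 and 1875.7. The 2 peaks nearest exons 1 and 3 were the lowest, those at exons 4 to 7 ranged from 868.7 to 1606.8, and the 3 at exons 11 and 12 from 1552.0 to 1875.7. Peaks overlapped 7 of 16 exons, of which exon 13 was reached only by the edge of the 1875.7 peak. Exons 14 to 16, which include the 3′-UTR, had none. The list is a selection, so exons without a listed peak are not shown to be unbound.

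The listed alpha subunits can each pair with ITGB1 and had scores far below it. ITGAV, the alpha subunit of receptors for vitronectin and fibronectin, had 4 peaks, with scores of 34.0, 46.0, 45.0 and 94.0 from the 5′ end, and the highest was at exon 30, its last. ITGA6, a subunit of laminin receptors, had 1 peak of 62.4 (55.0 to 70.6) at exon 22 of 26. That peak also overlaps the antisense gene PDK1-AS1. ITGA2, a subunit of a collagen receptor, had 1 peak of 41.8 (35.8 to 48.6), whose centre was 179 bp from exon 26 of 30 and which overlapped no canonical exon. That centre lies on an annotated DNA repeat. The intervals of ITGA6 and ITGA2 do not overlap. ITGA3, ITGA5, ITGB3, ITGB4 and ITGB5 were unlisted.

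CD44 had 13 peaks and ranked 72 of 3312 genes by its best peak. From the 5′ end, the 2 peaks at exon 1 scored 189.9 and 483.8, those at exon 2 scored 265.0 and 317.6, and those at exon 3 scored 251.8 and 302.0. The 2 at exon 5 scored 466.9 and 620.6. The 4 at exon 18, the last and 3274 bp long, scored 769.6, 762.5, 625.2 and 702.6. Scores at exon 18 were above those at every other exon of CD44. The lowest of them, 625.2 (601 to 650), overlapped in its interval only with the 620.6 (597 to 645) of exon 5.

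A single CD44 peak lay between exons 5 and 18. It was at exon 14, had a score of 25.2 (20.6 to 30.6), and overlaps the antisense gene CD44-AS1. CD44 is known for a block of variable exons that are spliced into some of its transcripts, and exon 14 of the canonical transcript is included in 5 of the 13 protein-coding transcripts that span it in GENCODE 44. Exons 6 to 11 are included in 2 to 6 of the 20 or 21 transcripts that span them, and none of these exons had a listed peak. Exon 5, by contrast, is in 15 of 17 spanning transcripts, exon 3 in 12 of 14 and exon 2 in 12 of 12. Exons 1 and 18 are the end exons of the transcript. Only 4 and 2 transcripts span them, and all of these include them, so that share gives no comparison. Exons 4 and 15 to 17, which are in 75.0% to 91.7% of spanning transcripts, were also without a listed peak. These exons are 63 to 79 bp long. Exons 12 and 13, included in 10 of 20 and 10 of 19 spanning transcripts, had no listed peak either. Every CD44 exon without a listed peak is 132 bp or shorter, and every exon with a listed peak is 134 bp or longer. The part of exon length or of inclusion in the listing was not tested. The transcript counts describe the annotation, and use of these exons in MDA-MB-231 was not measured here.

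Of the matrix proteins, 2 of 12 laminin chains (16.7%), 2 of 44 collagen chains (4.55%), 1 of 4 thrombospondins (25.0%) and fibronectin were listed. The share of all protein-coding genes was 15.4%. THBS1, a secreted adhesive glycoprotein, was the only listed matrix protein gene with scores above 100. From the 5′ end its 5 peaks scored 215.1, 247.2, 228.6, 353.9 and 385.2. The first 3 were centred in coding exons 3 and 5, and the 2 highest lay in the 3′-UTR at exon 22 of 22. The 3′-UTR peaks also overlap FSIP1, a neighbouring gene. The library kit does not mark strand, so reads of THBS1 and FSIP1 cannot be told apart there. The same holds for the peaks of ITGA6 and of CD44 exon 14 that overlap an antisense gene, and for the 189.9 peak of CD44 exon 1, which overlaps CD44-DT.

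The other matrix genes had low scores. LAMC1, a gamma chain found in most laminins, had 1 peak of 60.9 (53.6 to 69.0) centred in coding exon 13 of 28. COL12A1, a fibril-associated collagen, had 7 peaks, which from the 5′ end scored 23.5, 23.5, 22.0, 20.3, 17.1, 13.2 and 10.3. The order in COL12A1 thus ran from higher scores at the 5′ end to lower ones at the 3′ end, the opposite of ITGB1. The intervals of 23.5 (19.0 to 28.7) and 17.1 (13.4 to 21.6) overlap, and that of 10.3 (7.41 to 13.9) lies below the first. COL12A1 has fewer than the 10 peaks required below for an order along the transcript. FN1, which forms fibrils that cells bind through integrins, had peaks of 20.3 (16.2 to 25.2) at exon 22 and 18.4 (14.4 to 23.0) at exon 30 of 46, and these intervals overlap. LAMB3 had 1 peak of 14.4, centred 450 bp from its first canonical exon. COL4A1, a chain of basement membrane collagen, had 1 peak of 12.2, centred 416 bp outside its canonical transcript. The COL4A1 peak overlaps COL4A2, the gene on its other side, and its assignment is uncertain. LAMA4, LAMB1, COL1A1, COL4A2 and COL6A1 were unlisted.

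Of the proteases, 3 of 21 ADAM genes (14.3%) and 1 of 19 ADAMTS genes (5.26%) were listed, beside 15.4% of all protein-coding genes. ADAM10, a sheddase of Notch and of many adhesion molecules, had 25 peaks, the most of any member, and ranked 15 of 3312 genes by peak number but 157 by best score. Its lowest score was 99.4, its median 272 and its highest 438.5. Peaks overlapped 13 of its 16 exons, all but exons 1, 13 and 15. The 9 peaks at exons 2 to 7 had a median of 125.3 (99.4 to 208.3), the 12 at exons 8 to 14 a median of 284.5 (139.0 to 364.4), and the 4 at exon 16 a median of 415.6 (382.0 to 438.5). Every peak at exon 16 was thus above every other ADAM10 peak.

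ADAM17, the sheddase of TNF, had 2 peaks, of 26.4 at exon 3 and 25.7 at exon 6 of 19. ADAM19 had 6 peaks, of 10.8 at exon 1, 12.2 and 10.8 at exon 6, 11.7 at exon 18, and 27.9 and 29.4 in the 3′-UTR. ADAMTS6 had 3 peaks, of 13.2 at exon 21, 9.54 at exon 23 and 25.0 at exon 25. In ADAM10, ADAM19 and ADAMTS6 the highest score was therefore at the last exon.

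The 23 matrix metalloproteinase genes had 0 listed peaks, with an upper Wilson limit of 14.3% beside the 15.4% of all genes. MMP1, MMP2, MMP9 and MMP14 were among them. The 4 TIMP genes, PLAU and PLAUR were unlisted too, with upper limits of 49.0% and 65.8%, which are wide at this size. Whether any group differs from the background was not tested, and genes were not matched for expression or length. Another 11 of the 168 member genes match the letters of the rule but are outside the groups named, the ADAMTS-like genes among them, and also had no peak. Without these 11, the listed share was 9.55% of 157 genes. Member genes with a peak had a median summed exon length of 7039 bp (n = 15) and those without one 4666 bp (n = 152). Over all protein-coding genes these medians were 4768 and 2625 bp. The part of transcript length in the listing was not tested.

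**Figure D2:**
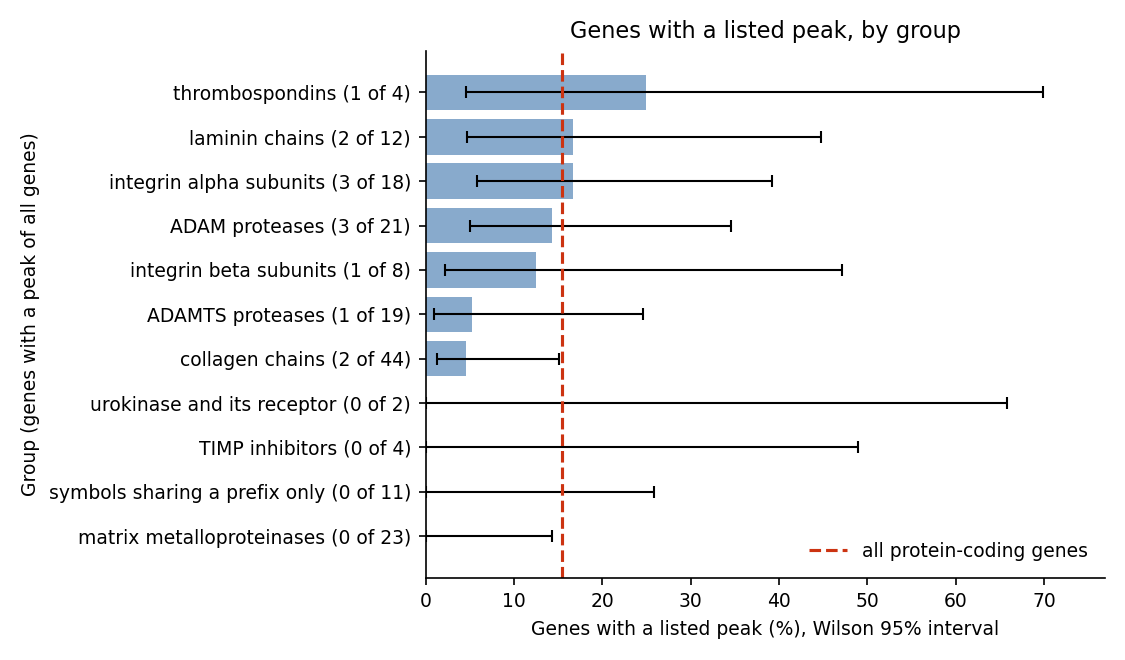
Percent of protein-coding genes with a listed peak in each group of 2 or more genes, with Wilson 95% intervals and the value for all protein-coding genes, 15.4%, as a dashed line. Thrombospondins, laminins and alpha integrins lie above the line with wide intervals, whereas the collagen and metalloproteinase intervals end below it. The intervals cover counting error only, and no group was tested against the line.

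Scores were higher toward the 3′ end in the 3 members with 10 or more peaks. Spearman's rho between score and position along the spliced transcript was 0.81 in ADAM10 (n = 25 peaks), 0.73 in ITGB1 (n = 12) and 0.64 in CD44 (n = 13). Over all 359 genes with 10 or more peaks the median was 0.49 (quartiles 0.26 and 0.67), and 88.9% were above 0. Peaks of a gene share their libraries and often overlap the same exon, so these values are descriptions.

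**Figure D3:**
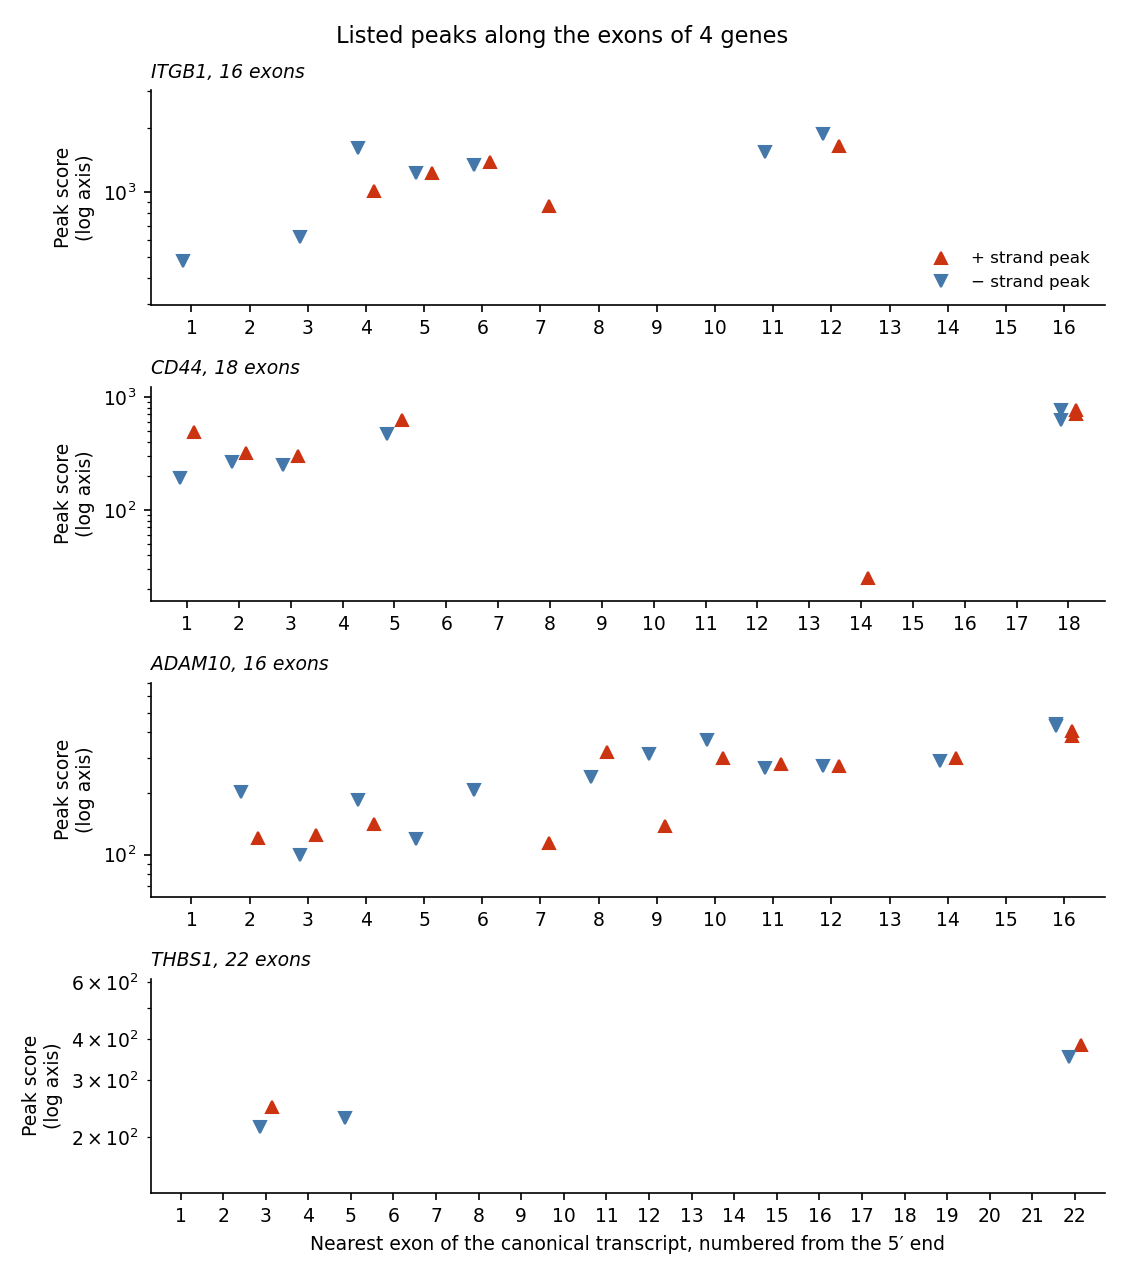
Score of each listed peak (log axis) at the nearest exon of ITGB1, CD44, ADAM10 and THBS1, with exons numbered from the 5′ end and triangles marking the strand given to the peak. Many exons carry 1 peak of each strand, with + scores 0.444 to 2.55 times the − scores. The region between CD44 exons 5 and 18 holds only the 25.2 peak.

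By the deposited annotation, 63 of 84 member peaks, or 75.0% (64.8 to 83.0), were in introns, against 61.9% of the list. Without ADAM10, CD44 and ITGB1 the share was 64.7% of 34 peaks. The 3′-UTR held 10, or 11.9% (6.60 to 20.5), against 14.6%. Exons held 5, promoters 4, and 5′-UTRs and non-coding exons 1 each. Placed in the canonical transcript, 64 centres were intronic, and all 64 were within 203 bp of an exon, with a median distance of 87 bp. In the list 96.4% of intronic centres were within 1 peak length of an exon, with a median of 101 bp. Of the 84 member peaks, 78 overlapped a canonical exon of their gene and 8 were centred on an annotated repeat. How reads that match several places were treated is not stated.

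The side on which an intronic peak lay followed the strand given to it. The exon was to the left of all 27 intronic + peaks and to the right of all 37 intronic − peaks, in the direction of the reference. In the list this held for 98.0% and 97.6%. The strand of the gene did not set the side, and 57.1% (46.5 to 67.2) of member peaks were on the strand of their gene, against 53.2% in the list.

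**Figure D4:**
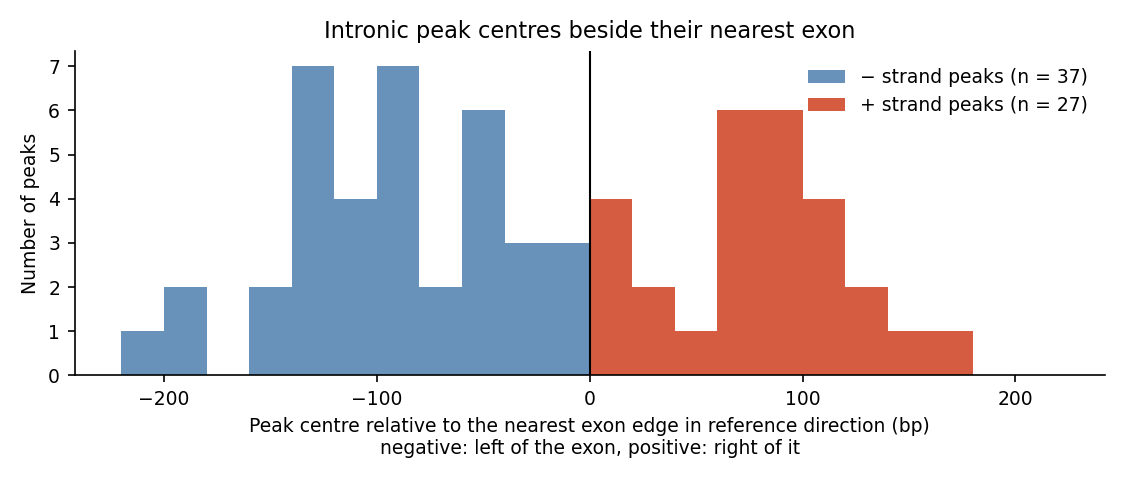
Position of the 64 intronic peak centres relative to the edge of the nearest exon, in bp in the direction of the reference, for peaks given the + strand (n = 27) and the − strand (n = 37). The − strand peaks all lie left of the exon and the + strand peaks all right of it, within 203 bp.

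An exon with 1 peak of each strand was found 21 times, in 5 genes. ADAM10 had 9 of these exons, CD44 and ITGB1 4 each, and ADAM19 and THBS1 had the other 4. The + peak was the right-hand one in all 21, and its centre was a median of 355 bp from that of the − peak. The + score was 0.444 to 2.55 times the − score, with a median ratio of 1.03, and the intervals of both peaks overlapped at 8 exons. At the exons shown above, the + and − scores were 1654.8 and 1875.7 in ITGB1, 620.6 and 466.9 in CD44, and 300.3 and 364.4 in ADAM10. The extremes of the ratio were exon 1 of CD44, with 483.8 and 189.9, and exon 9 of ADAM10, with 139.0 and 313.0.

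Because of this offset, each peak was also placed 173 bp back against its strand from the centre, which is the distance to the edge of the peak. At that position 53 member peaks, or 63.1% (52.4 to 72.6), were in coding exons, 14.3% in 3′-UTRs and 15.5% (9.27 to 24.7) in introns. The list gave 53.1%, 18.8% and 20.2%. The annotated region of a member peak thus depends on where along the peak it is read, and how reads were shifted or extended before peak calling is not stated.

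**Figure D5:**
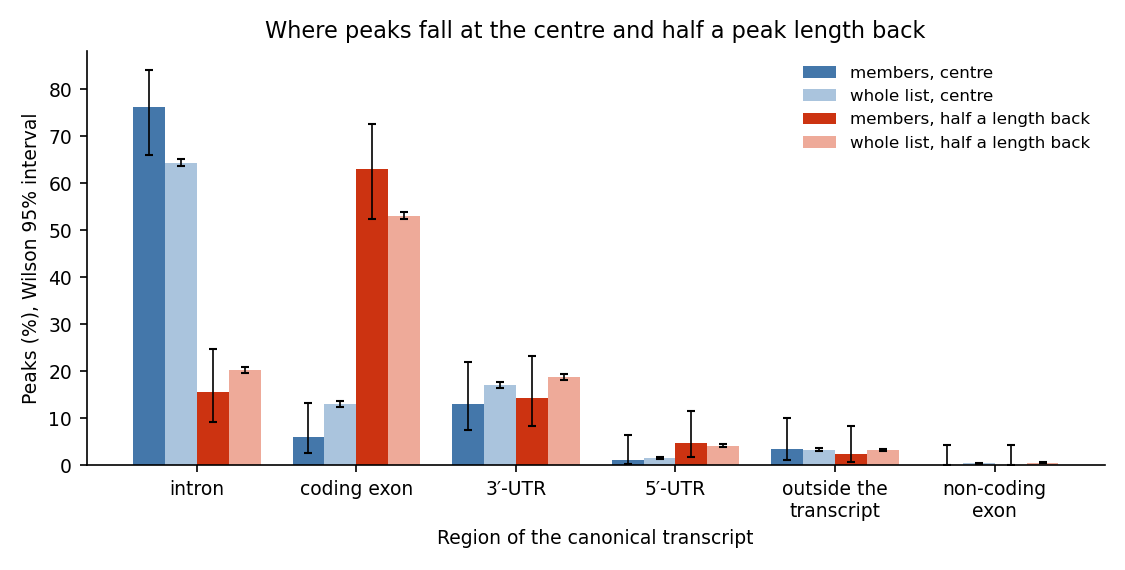
Percent of member peaks and of all placed peaks of the list (13704) in each region of the canonical transcript, read at the peak centre and 173 bp back toward its edge, with Wilson 95% intervals. Introns hold 76.2% of member peaks at the centre and 15.5% at the position further back, and coding exons hold 5.95% and 63.1%, with a like shift in the whole list.

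Member peaks annotated to 3′-UTRs were in CD44 (3), ADAM10 (3), THBS1 (2) and ADAM19 (2), with a median score of 406 against 65.4 for 3′-UTR peaks of the list. On the sense strand ATTTA was present in 6 of 10, or 60.0% (31.3 to 83.2), against 52.7% of 2052 such peaks in the list. TATTTAT, every match of which is also an ATTTA match, was in 3 of 10, or 30.0% (10.8 to 60.3), against 8.24%. These 3 peaks hold only the 2 sites shown above, since 2 overlapping ADAM10 peaks share one. TTTTT was in 8 of 10, against 78.5% of the list. The mean GC content was 39.5% in members and 39.1% in the list.

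ADAM10 has 27 ATTTA in a 3′-UTR of 8741 bp, and its 3′-UTR peaks cover 8.11% of it and hold 4. CD44 has 7 in 3072 bp, of which 3 lie under peaks covering 32.4%. ADAM19 has 5 in 3648 bp, of which 1 lies under peaks covering 12.8%. THBS1 has 8 in 4100 bp and 0 under its peaks, which cover 13.0%. A match to these letters is not a measured binding site, and its absence says only that the letters are not in the window.

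Intronic peaks were also searched for TTTTT on the sense strand. It was present in 25 of 27 member peaks centred upstream of the nearest exon, or 92.6% (76.6 to 97.9), against 79.2% of 3872 in the list. Downstream of the exon it was present in 25 of 37, or 67.6% (51.5 to 80.4), against 68.1% of 4953. Both member intervals include the share in the list, where TTTTT was also more frequent upstream. Whether members differ from the list was not tested.

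The gene column of the list, which names the gene with the nearest start site, differed from the host gene for 35 member peaks, or 41.7%, against 41.4% in the list. All 25 ADAM10 peaks were named there for the pseudogene HSP90AB4P, and 2 ITGB1 peaks for SNORA86. The ITGA2 peak was named MOCS2 and 2 ITGAV peaks FAM171B. A search of that column by symbol would thus miss ADAM10 altogether.

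Other genes of adhesion and matrix, outside the rule, were read from a list of 62, of which 9, or 14.5% (7.83 to 25.3), had a peak, against 15.4% of all protein-coding genes. CD9, a tetraspanin that associates with integrins, had 9 peaks with a best score of 1721.1, second to ITGB1 among the adhesion and matrix genes read here. SDC4, a syndecan of focal adhesions, had 10 with a best score of 453.5. Of the collagen-modifying enzymes, P4HA1 and PLOD2 had 17 and 15 peaks with best scores of 315.9 and 126.5. Others of the same list, P4HA2, P4HB, PLOD1, PLOD3, LOX and LOXL2, were unlisted. The peaks of the 2 listed collagen chains stayed at or under 23.5. PTK2, the focal adhesion kinase, had a best score of 38.7, SERPINE2 35.0, FERMT1 23.2, FBN1 14.4 and TNS3 10.3.

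Listed genes were also set beside markers of the cell line. Of 6 genes typical of this mesenchymal-like line, AXL, ZEB1 and CD44 were listed, whereas VIM, CAV1 and EGFR were not. CD44 is itself a member, so it is no separate check. None of 7 luminal epithelial markers and none of 4 markers of other cells was listed. The upper Wilson limits are 35.4% and 49.0%, both above the 15.4% of all protein-coding genes. Counts of 0 in lists this short therefore cannot show whether these markers differ from the background. For the 6 genes typical of the line, of which 3 were listed, the Wilson interval was 18.8% to 81.2%, which lies above 15.4%. Whether any of these marker lists differs from the background was not tested. A listed peak also needs both expression and selection by the authors, so these markers do not check the label.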

How the data were processed

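RNA from 2 HuR RIP and 2 IgG RIP samples of MDA-MB-231 cells was sequenced by the authors, aligned with STAR to hg38, and peaks were called with HOMER, as the labels and methods state. Versions, thresholds, read shifting and any pooling of replicates are not given in the sources used here. The deposited peak score is on a scale the authors did not state. The deposited focus ratio is a fraction between 0 and 1, and the deposited distance to a start site is in bp. The total number of reads per sample was not used here.

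Host genes came from the RefSeq transcript of each annotation, matched for 13835 of 13929 peaks to RefSeq genes of GRCh38.p14. Exons and UTRs were those of the canonical transcript in GENCODE 44 (167 of 168 members matched), sequences were read from hg38, and coordinates are 1-based. Members and gene lists were chosen with earlier results of these data known. Every member with a peak was named, together with members and lists written down as fixed names. Wilson and exact Poisson 95% intervals were computed, and functions were tested on simulated data. Scores at exons were grouped into ranges after their values were seen. Alternatives were a score limit, merged loci, naming by the gene column, another position along the peak, strict members and other motifs. Python 3.11.15, numpy 2.4.6, scipy 1.17.1, pandas 2.3.3, pysam 0.24.0 and matplotlib 3.10.9 were used.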

Additional observations from a re-analysis of the deposited data

How the results depend on the processing

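Across 8 results and 35 alternatives, 30 planned and 5 added after seeing the data, 27 values moved by less than their counting interval or, for counts, by less than 1.5 times. With scores at or above the median of the list, 8 member genes had a peak, or 4.76% in place of 8.93%, and the median score was 300 in place of 222. With genes named by the gene column, in which ADAM10 is absent, the median score was 44.8. Without the 3 genes with most peaks, ADAM10, CD44 and ITGB1 (added after seeing the data), it was 24.2, and the share in introns was 64.7% in place of 75.0%. Read 173 bp back from the centre, the intron share was 15.5%, which follows from moving the position read. TATTTAT in place of ATTTA gave 30.0% in place of 60.0%. No paired analysis was possible because single samples have no values in the list, and for the same reason no sample could be left out. Sequencing depth is unknown, and a weakly expressed member can be unlisted.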
